A study of Canis lupus familiaris with 10 samples.

Results

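The genes described here encode parts of the transforming growth factor beta (TGF-beta) and bone morphogenetic protein (BMP) pathways. They are the ligands TGFB1, TGFB2, TGFB3 and BMP4, the receptors TGFBR1 and TGFBR2, the signal transducers SMAD3 and SMAD9, and the target genes ID1 and ID3. Every probe set that the array annotation names for 1 of these 10 genes alone was taken. This gave 21 of the 42924 probe sets besides the controls, of which 19 lay above background and were among the 26787 tested. Each of the 10 genes had at least 1 tested probe set. The other 2 probe sets, the dimmest of those named for TGFB3 and for SMAD3, lay below background on all 10 arrays, with signals of 2.96 to 3.32 and of 3.74 to 4.16.

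The arrays held RNA from cultured hemangiosarcoma cells of 10 pet dogs. Hemangiosarcoma is a malignant tumor of cells that form blood vessels, and in all 10 dogs it came from the spleen. The study asked whether gene expression in the tumor cells follows the breed of the dog, and compared 6 Golden Retrievers (GR) with 3 dogs of other breeds (non-Golden Retrievers, nGR). The GR dogs were CHAD-G4, CHAD-G8 and Tucker, which were males, and CHAD-G6, Frog and Journey, which were females. They were 6 to 12 years old, and Frog and Journey were distant relatives. The nGR dogs were all males, 7 to 9 years old, and each was of another breed. CHAD-P9 was a Portuguese Water Dog, Dal-4 a Dalmatian, and Joey a Rottweiler by the title of the sample. DD-1, a male of 9 years, was a Golden Retriever and Great Pyrenees cross (F1) and was in neither group. The labels name no treatment, and cells from the earliest passages that could be had were used. There was 1 culture and 1 array per dog, so each SD is the spread between dogs and holds the error of culture and array as well. With 1 dog for each other breed, a breed effect and an effect of the single dog cannot be told apart.

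Signals are log2 values, so that 1 unit is a 2-fold difference. The 40th percentile of each array, 5.02 to 5.16, was taken as background. Array medians were 5.77 to 5.83. The arrays from Dal-4 and CHAD-G4 stood apart, since their highest correlation with any other array was 0.925 and 0.934, against 0.951 to 0.974 for the other 8. Dal-4 is recorded as a male, but at a probe set of EIF2S3, which lies on both sex chromosomes, this array read 2.95, near the 3.08 to 3.33 of the 3 females and below the 10.15 to 10.60 of the other 6 males. Of 15 endothelial markers 10 were above background and tested, and 8 of these lay above it on all 10 arrays. These were KDR (6.51 to 8.25), EGFL7 (7.06 to 7.51) and ROBO4 (6.78 to 7.37). Closer to background were CLDN5, CD34, TIE1, MMRN2 and CDH5, at 5.06 to 6.30. ERG lay above background on 9 arrays and FLT1 (3.50 to 8.38) on 4. PECAM1, TEK, ESAM and EMCN lay below background on all 10 arrays, and VWF lay above it on only 2. The collagen genes COL1A1 (12.84 to 13.63), COL1A2 (14.00 to 14.32) and COL3A1 (13.92 to 14.33), which fibroblasts express strongly, were high in all 10 dogs. Of 9 fibroblast markers 7 lay above background on all 10 arrays. LUM did not in Dal-4 (4.40, against 12.47 to 14.08 in the other dogs), nor POSTN in Journey (3.38) and Dal-4 (4.17). Of 10 hematopoietic markers 6, PTPRC included, were below background on all 10 arrays. The other 4, CD14 (5.98 to 7.98), CD68 (5.57 to 6.98), CD3E (6.19 to 6.61) and CSF1R (5.23 to 5.48), were above it on all 10. RNA was measured in bulk, so fewer cells of a type and less RNA per cell cannot be told apart.

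TGF-beta ligands bind TGFBR2, which recruits and phosphorylates TGFBR1, and this kinase then activates SMAD2 and SMAD3. BMP ligands such as BMP4 act through related receptors on SMAD1, SMAD5 and SMAD9. Both sets of SMADs join SMAD4 to enter the nucleus, and ID1 and ID3, inhibitors of basic helix-loop-helix transcription factors, are well known targets of the BMP branch. In blood vessels the pathway acts on endothelial growth, on the coverage of vessels by smooth muscle cells and on matrix production.

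Transcripts of all 4 ligands were above background in every dog, and the breed groups overlapped for each of them. TGFB1, TGFB2 and TGFB3 encode the TGF-beta proteins, and BMP4 a BMP ligand. TGFB1 had the widest spread of the genes with 1 probe set, and this came from CHAD-G4. Its signal in the GR dogs was lowest at 6.49 in CHAD-G4, with a median of 8.68 and a highest value of 8.85 in CHAD-G8. In the nGR dogs it was 8.10 in CHAD-P9, 9.31 in Dal-4 and 8.38 in Joey, and in the F1 dog it was 8.83. CHAD-G4 lay 1.61 below the next lowest dog, and Dal-4 lay 0.46 above the next highest. The whole range over the 10 dogs was 2.82, and 6.65% of all tested probe sets had a range as wide or wider. The group means were 8.31 ± 0.904 (SD, n = 6) in GR and 8.60 ± 0.632 (SD, n = 3) in nGR. The difference, GR minus nGR, was -0.29 (SE 0.520, limma, adjusted p = 0.945). It was 0.08 without CHAD-G4, and 0.43 (SE 0.170, limma, unadjusted p = 0.0350, adjusted p = 1.00) without both CHAD-G4 and Dal-4. The choice to leave out both was made after the data were seen. They hold the lowest GR and the highest nGR signal of this gene, so leaving them out raises the difference and narrows the spread by itself.

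TGFB2 was lowest in the F1 dog. The brighter of its 2 probe sets had a lowest signal of 9.09 in Tucker, a median of 10.03 and a highest signal of 10.49 in CHAD-G8 among the GR dogs. In nGR it was 10.34 in CHAD-P9, 10.13 in Dal-4 and 9.30 in Joey, and it was 8.47 in the F1 dog. The groups overlapped, with Joey and Tucker the lowest of the purebred dogs. The second probe set ranged from 8.03 in the F1 dog to 9.62 in CHAD-G8, and the correlation between both probe sets over the 10 arrays was 0.95. The differences were 0.04 (SE 0.328, adjusted p = 0.990) and 0.23 (SE 0.256, adjusted p = 0.895) by limma.

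TGFB3 was highest in CHAD-G4, the dog with the lowest TGFB1, and lowest in the F1 dog. Its brighter probe set had a signal of 7.56 in Frog and in Journey, a median of 7.63 and a highest signal of 8.43 in CHAD-G4 among the GR dogs. In nGR it was 7.92 in CHAD-P9, 7.86 in Dal-4 and 8.17 in Joey, and in the F1 dog it was 7.45. The second probe set spread wider, from 5.57 in the F1 dog and 5.96 in Journey to 8.18 in Joey and 8.54 in CHAD-G4, and its correlation with the first was 0.91. All 3 nGR dogs lay above the GR median at both probe sets, but CHAD-G4 lay above all of them. The differences were -0.20 (SE 0.209, adjusted p = 0.879) and -0.78 (SE 0.530, adjusted p = 0.814) by limma. Without CHAD-G4 the second was -1.10, and its adjusted p was never below 0.585 in any setting.

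BMP4 stood out in CHAD-G8 and in the F1 dog. Its signal was 8.0 in CHAD-G8 and 7.20 in the F1 dog, while the other 5 GR dogs lay at 5.58 to 6.27. The nGR dogs had signals of 6.04 in CHAD-P9, 5.60 in Dal-4 and 6.10 in Joey, all within the range of those 5 dogs. The group means were 6.31 ± 0.864 (SD, n = 6) in GR and 5.91 ± 0.271 (SD, n = 3) in nGR, a difference of 0.40 (SE 0.465, limma, adjusted p = 0.899). Without CHAD-G8 the difference was 0.06.

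**Figure D1:**
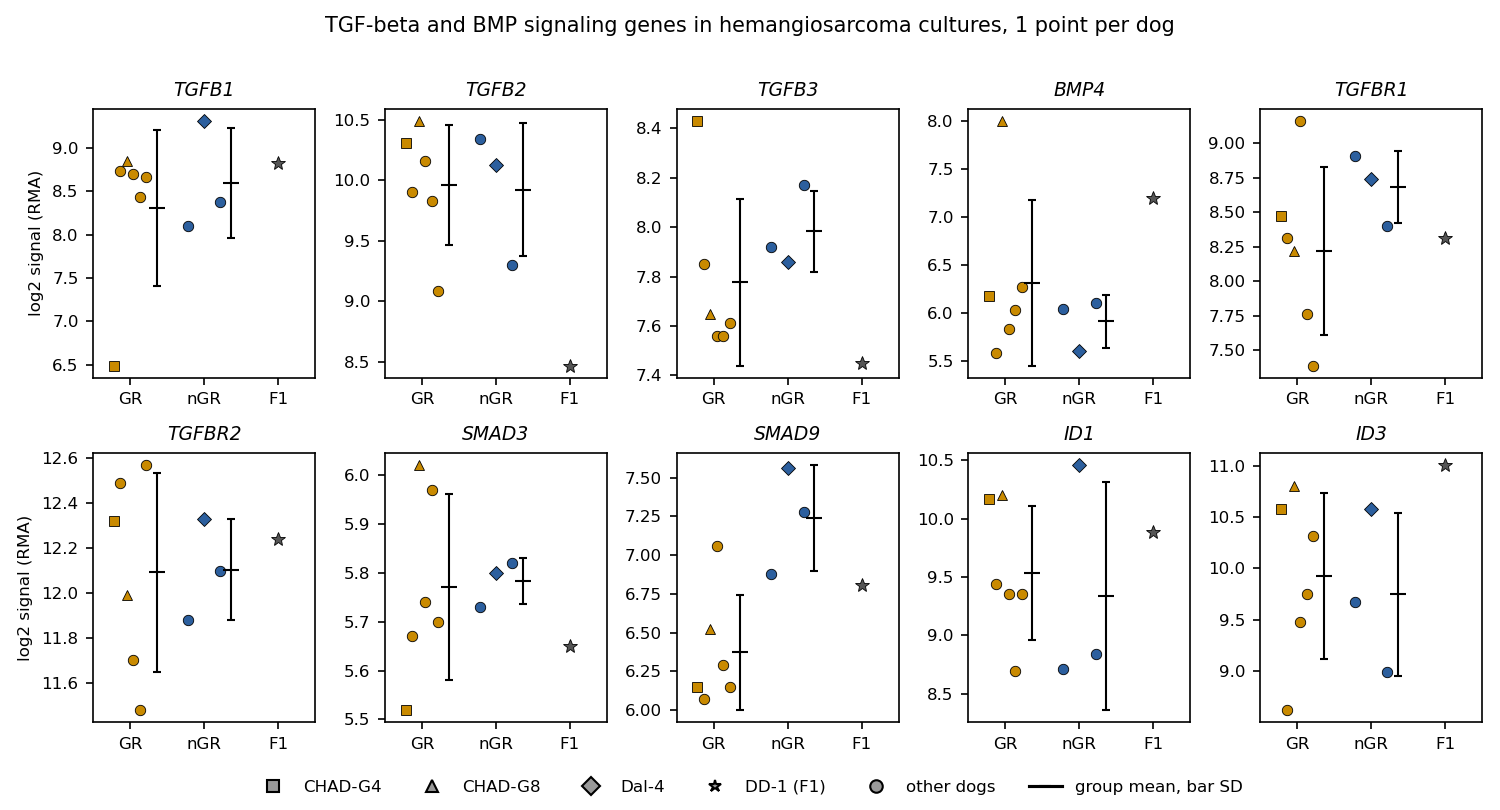
Log2 signal of each of the 10 genes in the Golden Retriever (GR), non-Golden Retriever (nGR) and F1 dogs, 1 point per dog, with the mean and SD of both breed groups beside the points; the brightest probe set of each gene is plotted and each panel has its own axis, which does not start at 0. CHAD-G4 lies at 6.49 for TGFB1, CHAD-G8 at 8.0 for BMP4, and Frog at 7.06 is the GR dog that lies among the nGR dogs for SMAD9.

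The TGF-beta receptors were above background in every dog at every probe set. TGFBR1, the type I receptor kinase, had signals of 7.39 in Tucker, a median of 8.27 and 9.16 in Frog among the GR dogs. In nGR they were 8.91 in CHAD-P9, 8.74 in Dal-4 and 8.40 in Joey, and in the F1 dog 8.31. Frog was the only GR dog above CHAD-P9 and Dal-4, while CHAD-G4 at 8.47 also lay above Joey. The mean was 8.22 ± 0.611 (SD, n = 6) in GR and 8.68 ± 0.260 (SD, n = 3) in nGR, and the difference was -0.46 (SE 0.342, limma, adjusted p = 0.824). Without Frog it was -0.65 (limma, unadjusted p = 0.0404), and it was negative without any other single dog.

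TGFBR2, the type II receptor that binds the ligand, was named by 6 probe sets. At the brightest of these the GR dogs had a lowest signal of 11.48 in Journey, a median of 12.15 and a highest signal of 12.57 in Tucker. The nGR dogs had 11.88 in CHAD-P9, 12.33 in Dal-4 and 12.10 in Joey, within the GR range, and the F1 dog had 12.24. The difference was -0.01 (SE 0.260, limma, adjusted p = 0.996), with an interval at 95% confidence of -0.60 to 0.57. The other 5 probe sets had differences of -0.32 to 0.06. At all 6, Journey and Frog, the distant relatives, were the 2 lowest dogs, and at 5 of them CHAD-G6 was the highest dog. The 15 correlations between pairs of TGFBR2 probe sets over the 10 arrays ran from 0.63 to 0.99, and the weakest involved the brightest probe set, where Tucker was highest.

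**Figure D2:**
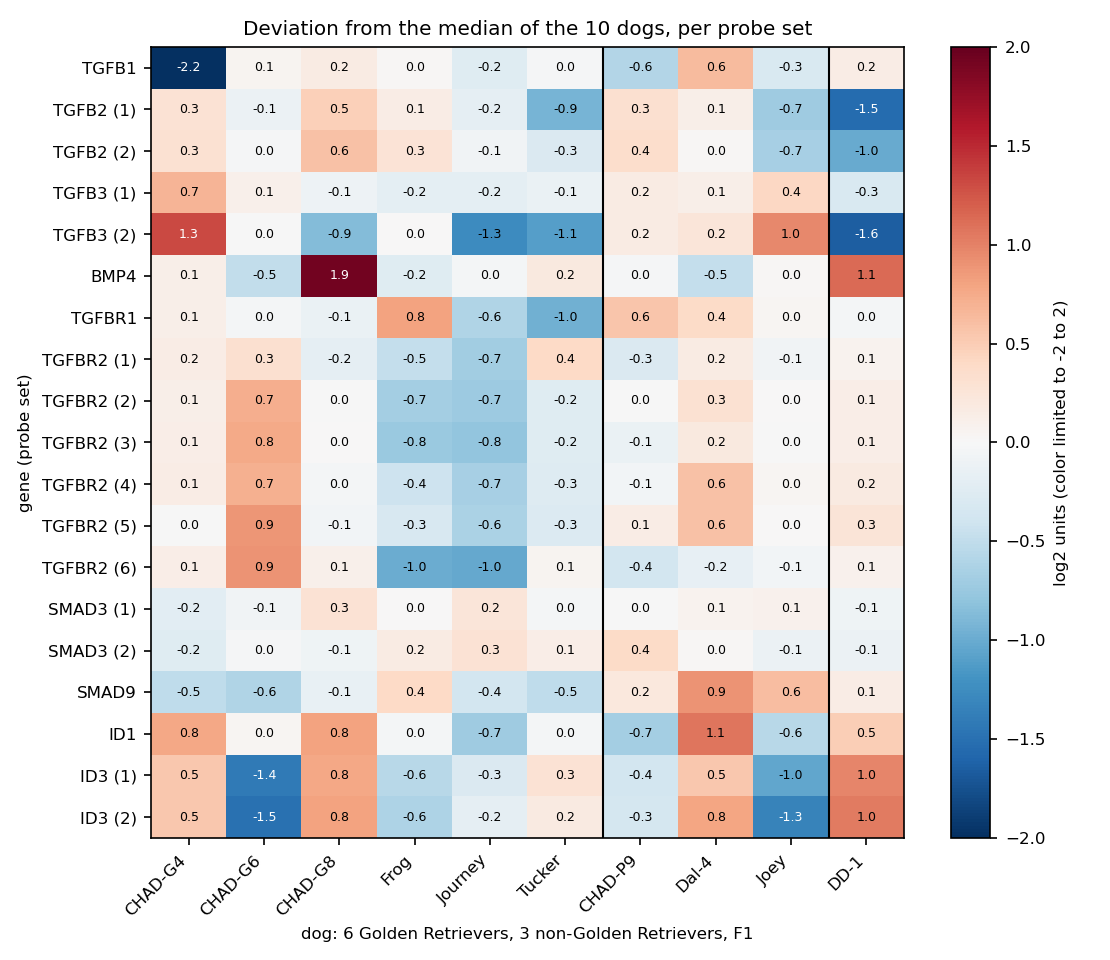
Deviation of each of the 19 tested probe sets (rows) from its own median over the 10 dogs (columns), in log2 units, red above and blue below, with the color limited to 2 units either way and the rounded value in each cell. The blue cell of CHAD-G4 for TGFB1 and the red cells of CHAD-G8 and the F1 dog (DD-1) for BMP4 stand out, and the 6 TGFBR2 rows share their low cells in Frog and Journey.

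SMAD9, a transducer of BMP signals, was the only one of the 10 genes with a breed difference at an unadjusted p under 0.05, and this difference did not pass the adjusted test. Its signal was lower in GR. The GR dogs had a lowest signal of 6.07 in CHAD-G6, a median of 6.22 and a highest signal of 7.06 in Frog. In nGR the signal was 6.88 in CHAD-P9, 7.56 in Dal-4 and 7.28 in Joey, and the F1 dog, at 6.81, lay between 5 of the GR dogs and the nGR dogs. The groups overlapped only through Frog. The means were 6.38 ± 0.372 (SD, n = 6) in GR and 7.24 ± 0.341 (SD, n = 3) in nGR, and the difference was -0.86 (SE 0.244, limma, unadjusted p = 0.00600, adjusted p = 0.772), with an interval at 95% confidence of -1.41 to -0.31. An exact permutation test of the breed labels over the 84 splits of the 9 dogs gave a two-sided p of 0.0238, where the smallest p that 6 against 3 dogs allow is 0.0119. With 1 dog left out this p was 0.0179, without Frog, to 0.0714, without Dal-4 or Joey, and it was above 0.05 in 6 of 9 such exact tests. Fewer dogs allow fewer splits, so the smallest p allowed was higher in these 9 tests than 0.0119. Their p-values thus cannot be compared directly with 0.0238. In all, 189 probe sets had a smaller unadjusted p in the same fit.

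The difference of SMAD9 stayed between -1.04 and -0.70 when any 1 dog was left out. It was -0.96 among the dogs recorded as males (limma, unadjusted p = 0.00644). These hold Dal-4, which had the highest SMAD9 signal and an EIF2S3 signal at the level of the females. The difference was -0.66 (limma, unadjusted p = 0.0523) without both Dal-4 and CHAD-G4. The adjusted p was 0.307 to 1.00 over all settings.

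SMAD3, a transducer of TGF-beta signals, was close to background. Its brightest probe set lay at 5.52 in CHAD-G4, a median of 5.72 and 6.02 in CHAD-G8 among the GR dogs, and at 5.73 in CHAD-P9, 5.80 in Dal-4 and 5.82 in Joey, with 5.65 in the F1 dog. The nGR values all fell inside the GR range. The difference was -0.01 (SE 0.143, limma, adjusted p = 0.992), with an interval at 95% confidence of -0.33 to 0.31. The second tested probe set lay at 5.05 to 5.68 and had a difference of -0.06. The correlation between both over the arrays was only 0.31, so they did not order the dogs alike.

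The other SMAD genes, from the pathway list, were set beside these. Of 8 SMAD genes on the array, 7 had a tested probe set, and at the brightest probe set of each the GR mean was below the nGR mean in 7 of 7, with a median difference of -0.46. Among all tested probe sets, 52.9% were lower in GR. Of the 7 SMAD genes 0 passed the adjusted test by limma. At an unadjusted p under 0.05 there were 3, namely SMAD1, SMAD4 and SMAD9, where 4.52% of all tested probe sets were lower at that threshold. With 1 dog left out there were 1 (without Dal-4) to 4 (without CHAD-G4), with 2 without CHAD-G8, CHAD-P9 or Joey, and with the F1 dog among the nGR dogs there was 1. SMAD1, which like SMAD9 carries BMP signals, was the only 1 of the 7 whose groups did not overlap, which 2.46% of all tested probe sets reached. The GR dogs had signals of 8.11 in CHAD-G4, a median of 8.47 and at most 8.71 in Frog, while CHAD-P9 had 8.94, Dal-4 8.91 and Joey 8.80. The F1 dog, at 8.45, lay among the GR dogs. The difference was -0.46 (SE 0.168, limma, unadjusted p = 0.0225, adjusted p = 0.772), with an unadjusted p of 0.0575 by limma without Dal-4 and 0.0649 without CHAD-P9. A second probe set of SMAD1 had a difference of -0.63 (SE 0.216, limma, unadjusted p = 0.0169), and the dimmest of its 3, near background, had -0.06.

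SMAD4, the common partner of both branches, had a difference of -0.52 (SE 0.200, limma, unadjusted p = 0.0290), or -0.37 without Dal-4 (limma, unadjusted p = 0.130). Its second probe set had -0.43 (SE 0.240, limma, unadjusted p = 0.103). SMAD5 had -0.48 (SE 0.266, limma, unadjusted p = 0.104). SMAD2 had -0.28, and -0.44 (SE 0.165, limma, unadjusted p = 0.0254, adjusted p = 0.772) at its second probe set. The inhibitory SMAD6 had -0.12. The inhibitory SMAD7 lay at 3.09 to 3.52, below background on all arrays, and was not tested. All 12 tested SMAD probe sets were lower in GR, 5 of them at an unadjusted p under 0.05, where 4.52% of all tested probe sets were lower at that threshold. These 5 include both brighter probe sets of SMAD1 and the second of SMAD2, so they are not 5 separate genes. The count of SMAD genes lower in GR was 6 or 7 of 7 when any 1 dog was left out. CHAD-G4 had the lowest signal of the 10 dogs for SMAD1, SMAD2, SMAD3 and SMAD6, and for 7 of the 15 genes of the list of other SMADs and partners.

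**Figure D3:**
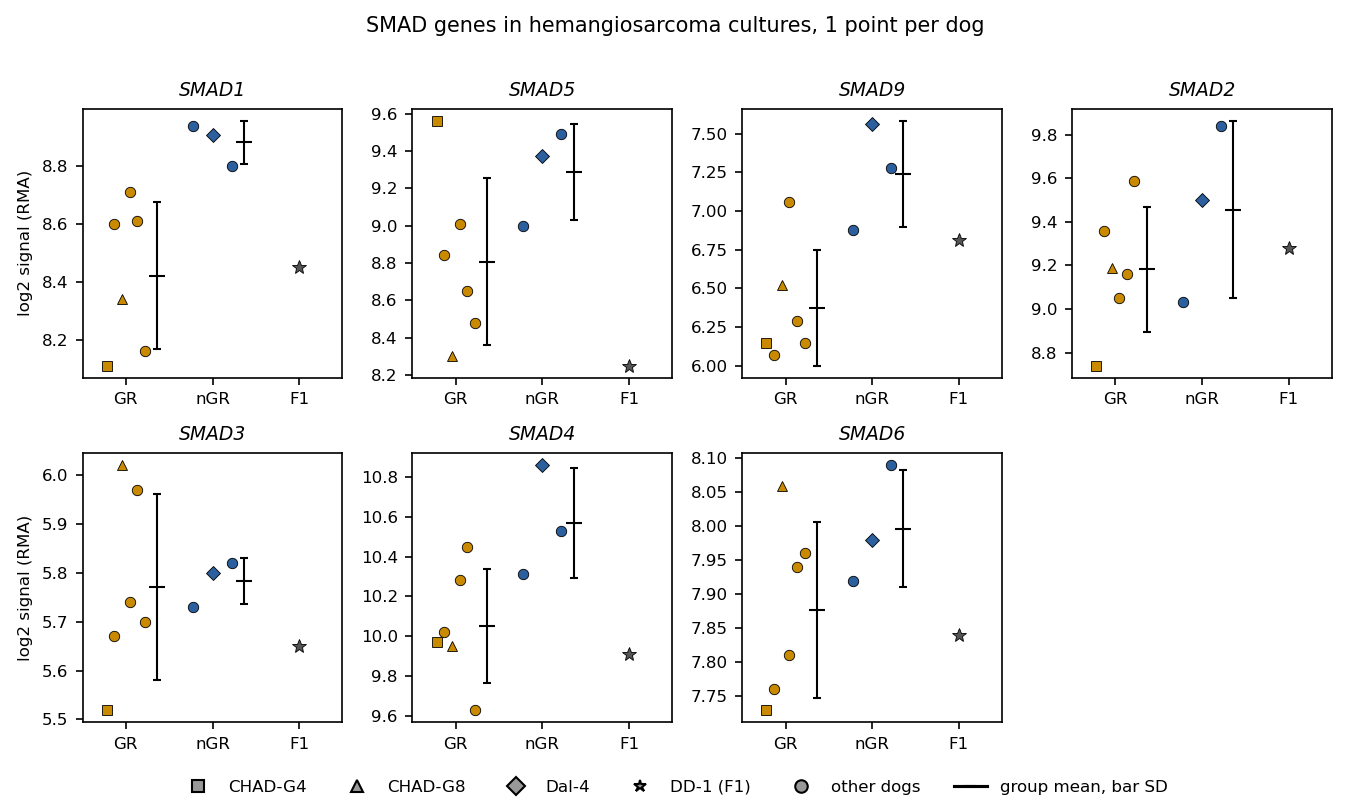
Log2 signal of the 7 tested SMAD genes by group, 1 point per dog at the brightest probe set, with the mean and SD of both breed groups; each panel has its own axis, which does not start at 0. The GR mean lies below the nGR mean in all 7 panels, by 0.86 for SMAD9 and by 0.01 for SMAD3. Only for SMAD1 do the groups not overlap, which 2.46% of all tested probe sets reached.

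ID1 and ID3 lay far above background in every dog, and both groups held dogs at either end. ID1 had a lowest signal of 8.69 in Journey, a median of 9.39 and a highest signal of 10.20 in CHAD-G8 among the GR dogs. In nGR it was 8.71 in CHAD-P9, 10.46 in Dal-4 and 8.84 in Joey, and in the F1 dog 9.89. Dal-4 thus had the highest signal of all dogs and its group partners the next lowest after Journey. The difference was 0.20 (SE 0.446, limma, adjusted p = 0.958), and without Dal-4 it was 0.76. The brighter probe set of ID3 had 8.62 in CHAD-G6, a median of 10.03 and 10.81 in CHAD-G8 among the GR dogs. It was 9.67 in CHAD-P9, 10.58 in Dal-4 and 8.99 in Joey, and 11.01 in the F1 dog, the highest of all. Both probe sets of ID3 put the dogs in nearly the same order, with a correlation of 0.99. Their differences were 0.18 (SE 0.504, adjusted p = 0.968) and 0.17 (SE 0.561, adjusted p = 0.974) by limma, and became 0.60 and 0.71 without Dal-4.

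Over all 19 tested probe sets of the 10 genes, 0 passed an adjusted p under 0.05 by limma, where 0.00373% of all tested probe sets (1 probe set) did, and the methods' t-test passed 0. At an unadjusted p under 0.05, 1 of 19 differed, that of SMAD9, and the share among all tested probe sets was 6.33%. Signals were higher in GR at 7 and lower at 12 probe sets, and the median difference was -0.06, beside -0.02 over all tested probe sets. At 0 of 19 did the groups not overlap, which 2.46% of all tested probe sets reached. The SE of these differences ran from 0.143 to 0.561. A difference that did not pass is not shown to be absent at this number of dogs. The median range over the 10 dogs was 1.59 at these probe sets, beside 1.06 over all tested probe sets.

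**Figure D4:**
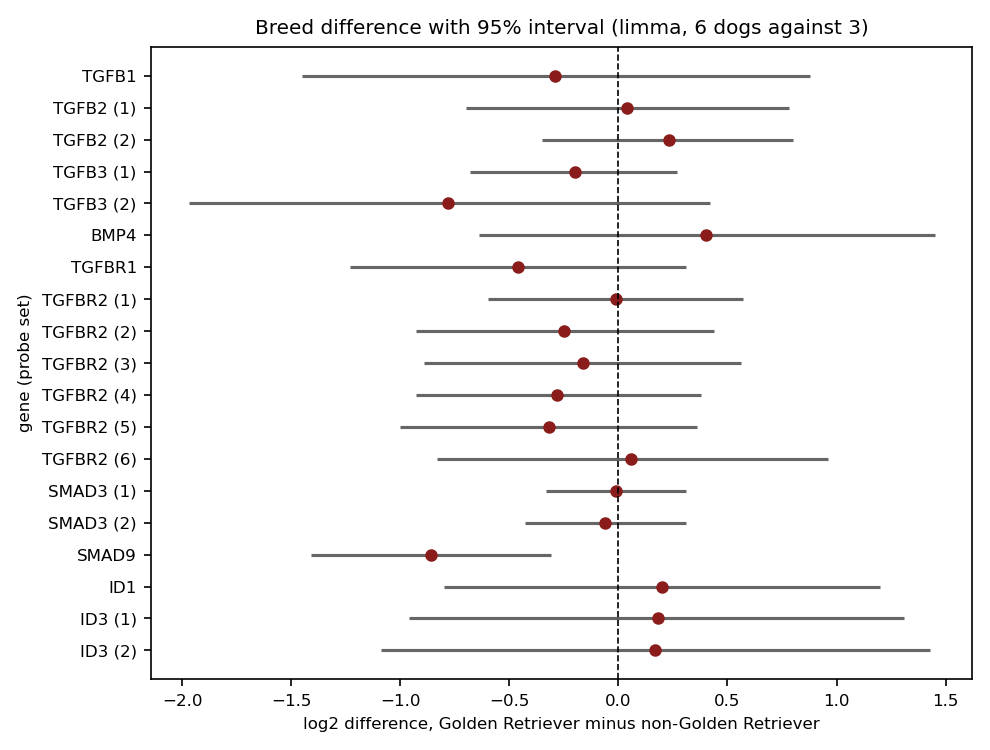
Difference between GR and nGR, in log2 units, at each of the 19 tested probe sets (points), with the interval at 95% confidence from limma (lines), 6 dogs against 3. Only the interval of SMAD9, from -1.41 to -0.31, does not cross 0, and it carries no adjustment for the number of probe sets tested.

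No dog was at the low or the high end of the whole pathway. At the brightest probe set of each gene, CHAD-G6 had the lowest signal for BMP4, SMAD9 and ID3, CHAD-G4 for TGFB1 and SMAD3, Journey for TGFBR2 and ID1, and the F1 dog for TGFB2 and TGFB3. CHAD-G8 had the highest signal for TGFB2, BMP4 and SMAD3, and Dal-4 for TGFB1, SMAD9 and ID1. CHAD-P9 and Joey were at neither end for any of the 10 genes.

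Pairs of the 10 genes were correlated over the 10 dogs, and none of the 45 pairs passed the adjusted test. At an adjusted p under 0.05 there were 0 for Pearson's r and 0 for Spearman's rho, with 3 pairs at an unadjusted p under 0.05 for r. ID1 and ID3 had an r of 0.67 (permutation test, p = 0.0358, adjusted p = 0.646), with a rho of 0.59 (permutation test, p = 0.0793, adjusted p = 0.798). Without Dal-4 and CHAD-G8, the dogs farthest from the median of ID1, r was 0.56. BMP4 and ID3 had an r of 0.62 (permutation test, p = 0.0475, adjusted p = 0.646) and a rho of 0.64 (permutation test, p = 0.0539, adjusted p = 0.798). This r was 0.31 without CHAD-G8 and the F1 dog. These 2 dogs hold the highest BMP4 signals, so leaving them out narrows the spread of BMP4 and can lower r by itself. TGFB1 and TGFB3 had an r of -0.73 (permutation test, p = 0.0242, adjusted p = 0.646) and a rho of -0.47 (permutation test, p = 0.178, adjusted p = 0.798), and r was -0.59 without CHAD-G4 and Dal-4. Leaving out these dogs moved the r of TGFB1 and ID1 from 0.04 (permutation test, p = 0.933, adjusted p = 0.998) to 0.89, while the rho over all 10 dogs was 0.62 (permutation test, p = 0.0617, adjusted p = 0.798). This pair was not among those 3, and the r of 0.89 was not tested. Other pairs shifted as well without the 2 dogs farthest from the median of the first gene. TGFB2 and ID3 went from -0.11 to 0.69, SMAD3 and SMAD9 from 0.18 to 0.76, and TGFB1 and SMAD9 from 0.42 to -0.32.

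**Figure D5:**
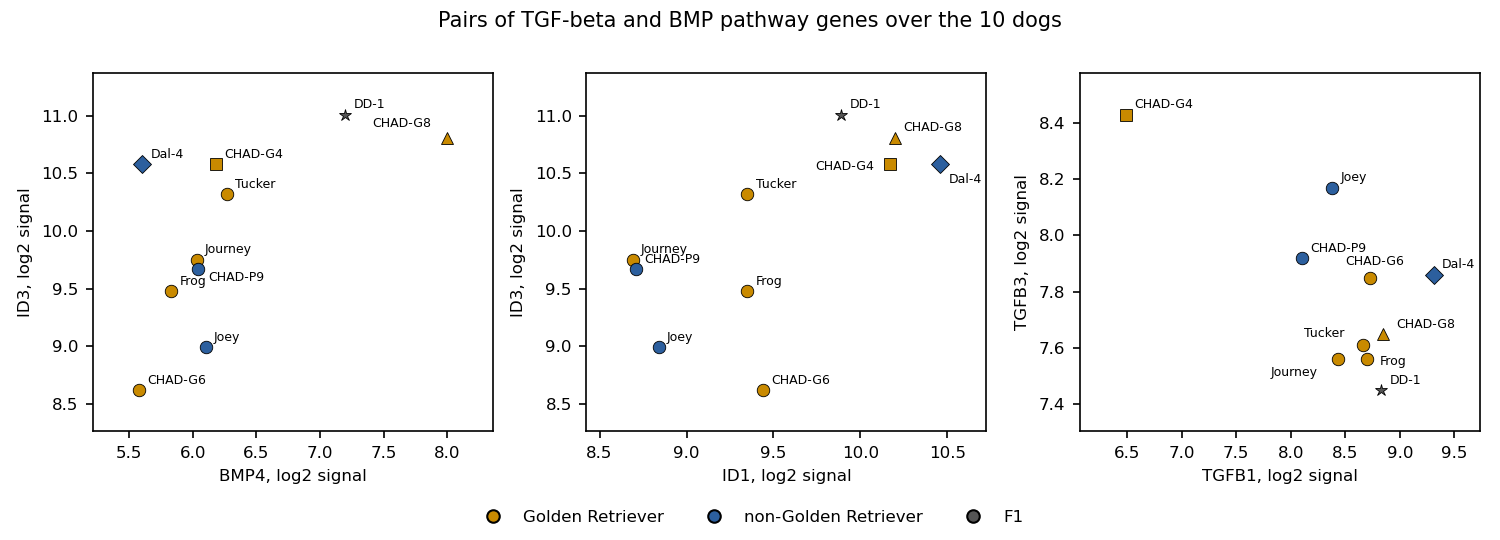
Log2 signals of 3 pairs of genes over the 10 dogs, 1 labelled point per dog, for the pairs with an unadjusted p under 0.05 for Pearson's r. The r of 0.62 for BMP4 and ID3 fell to 0.31 without CHAD-G8 and DD-1, and the r of -0.73 for TGFB1 and TGFB3 has CHAD-G4 alone at its left end.

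The other pathway genes were described by lists of ligands, receptors, SMAD partners, extracellular regulators and response genes. Of 103 genes on the array, 75 had a tested probe set, 0 passed the adjusted test by limma, and 5 had an unadjusted p under 0.05. These were INHBA, GREM1 and DCN, with higher signals in GR, and SMAD1 and SMAD4, with lower ones. Among all tested probe sets, 1.81% were higher and 4.52% lower in GR at that threshold.

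Of the other ligands, 12 of 23 genes were tested. INHBA, the subunit of activin A, had a signal of 9.76 in CHAD-G6, a median of 11.53 and 12.02 in Frog among the GR dogs, against 11.77 in CHAD-P9, 8.11 in Dal-4 and 8.71 in Joey. Dal-4 and Joey were thus the lowest of the 10 dogs, but CHAD-P9 lay among the highest. The difference was 1.75 (SE 0.777, limma, unadjusted p = 0.0493, adjusted p = 0.772), and an exact permutation test gave p = 0.0714. It was 1.04 without Dal-4 (limma, unadjusted p = 0.232), 1.34 without Joey (limma, unadjusted p = 0.174) and 2.87 without CHAD-P9 (limma, unadjusted p = 0.000747, adjusted p = 0.259). BMP2 lay between 4.86 in Dal-4 and 8.82 in CHAD-G4, and BMP6 ran from 4.41 in CHAD-G4 to 8.64 in the F1 dog. GDF15, a stress-induced ligand of the family, had a signal of 9.20 in CHAD-P9 and of 5.01 to 5.83 in the other 9 dogs.

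Of the other receptors, 5 of 13 genes were tested and 0 had an unadjusted p under 0.05. TGFBR3, the co-receptor betaglycan, spread the widest, from 5.53 in CHAD-P9 to 8.87 in CHAD-G4 and 9.26 in Dal-4. The type I receptors ACVR1 (9.90 to 11.33) and BMPR1A (7.77 to 8.73) and the activin receptor ACVR2A (9.0 to 10.46) were above background in every dog and lowest in CHAD-G4. Among the SMAD partners, TGIF1, a corepressor, ran from 7.58 in CHAD-P9 to 10.42 in Joey, and NEDD4L, a ubiquitin ligase, from 6.84 in CHAD-G4 to 9.74 in Dal-4. SKIL, which represses SMAD complexes, ran from 5.41 in CHAD-G4 to 7.34 in Frog.

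Of the extracellular regulators, 23 of 26 genes were tested, of which 18 had higher and 5 lower signals in GR, with a median difference of 0.15. Among all tested probe sets, 47.1% were higher in GR and the median difference was -0.02. Whether these genes moved together was not tested. GREM1, a secreted BMP antagonist, had a signal of 6.25 in Tucker, 7.32 to 7.80 in CHAD-G4, CHAD-G6 and Journey, 8.91 in CHAD-G8 and 9.38 in Frog. It was 6.12 in CHAD-P9, 5.31 in Dal-4 and 6.58 in Joey, so Tucker alone of the GR dogs lay among the nGR dogs. The difference was 1.84 (SE 0.630, limma, unadjusted p = 0.0162, adjusted p = 0.772), and 1.49 to 2.16 with 1 dog left out, with an unadjusted p of 0.0725 by limma without Dal-4. An exact permutation test of the breed labels gave p = 0.0595. DCN, a matrix proteoglycan that binds TGF-beta and is also on the fibroblast marker list, had a difference of 0.74 (SE 0.297, limma, unadjusted p = 0.0325, adjusted p = 0.772), with 12.55 in CHAD-P9 and 12.96 in Dal-4 but 14.05 in Joey, inside the 13.64 to 14.21 of the GR dogs. An exact permutation test gave p = 0.0595. The DCN difference was 0.43 without CHAD-P9 (limma, unadjusted p = 0.175), 1.18 without Joey (limma, unadjusted p = 0.000372, adjusted p = 0.524) and 0.49 with array weights (limma, unadjusted p = 0.150). The mean signal of the 9 fibroblast markers was 10.66 to 11.53 in the GR dogs, 10.65 in CHAD-P9, 10.00 in Dal-4 and 11.48 in Joey. These markers include DCN itself, and LUM, at 4.40 in Dal-4, by itself lowers the mean of that dog. The median deviation from the genes' medians was -0.18 (Journey) to 0.11 (CHAD-G8) in the GR dogs, -0.16 in CHAD-P9, -0.15 in Dal-4 and 0.05 in Joey. The part of these markers in the DCN difference was not tested.

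Some regulators were set apart by single dogs instead of groups. LTBP2, a latent TGF-beta binding protein of the matrix, had a signal of 4.45 in CHAD-G4 and of 9.45 to 11.17 in the other 9 dogs. BAMBI, a decoy receptor, ran from 4.55 in CHAD-G4, 5.03 in Dal-4 and 5.23 in Joey to 10.23 in CHAD-P9. FST, which binds activin, ran from 6.54 in Joey to 11.43 in CHAD-G4. THBS1, an activator of latent TGF-beta, was 13.64 to 14.56 in 9 dogs and 12.43 in Joey.

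Of the genes known to respond to TGF-beta, 18 of 19 were tested, with 10 higher and 8 lower in GR and 0 at an unadjusted p under 0.05. CHAD-G4, the dog with the lowest TGFB1, had the lowest signal of the 10 dogs for 6 of the 18 and the highest for 4, and its median deviation from the genes' medians was -0.05, against -0.22 in Joey and -0.14 in Dal-4. Its mean over the list was 10.01, against 10.42 to 11.07 in the other dogs. Without ACTA2 and LTBP2, left out after their values were seen, that mean was 10.58 in CHAD-G4, and the lowest was 10.43 in Joey. ACTA2, smooth muscle actin, had a signal of 6.39 in CHAD-G4, 9.73 in Dal-4 and 12.69 to 14.13 elsewhere. The smooth muscle markers had a mean over 8 tested genes of 6.74 in CHAD-G4 and 7.55 to 9.16 in the other dogs. This list also holds ACTA2, which by itself lowers the mean of CHAD-G4. CHAD-G4 was lowest for 5 of the 8 genes, ACTA2 among them. Its median deviation from the genes' medians was -0.38, against -0.32 in Tucker, -0.21 in Joey and -0.09 in Dal-4. The part of these markers in the values above was not tested. CCN2, a matricellular protein, was 9.76 in Joey and 12.55 to 13.40 in the other dogs, and TGFBI ran from 4.56 in the F1 dog to 10.37 in Tucker. SNAI2, a transcription factor of mesenchymal cells, and BHLHE40, a transcriptional repressor, had differences of -0.42 (SE 0.239) and 0.69 (SE 0.323), with adjusted p-values of 0.784 and 0.775 by limma.

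Of the BMP response genes other than ID1 and ID3, 6 of 12 were tested, with 3 higher and 3 lower in GR and 0 at an unadjusted p under 0.05. MSX2, a homeobox factor, had a difference of 1.16 (SE 0.584, limma, adjusted p = 0.776) and was above background on 5 arrays. RUNX2, a factor of bone-forming cells, lay near background at 5.20 to 5.64, and HEY1, a repressor that Notch also induces, lay at 5.59 to 7.33. The mean over the 6 genes was 5.68 in CHAD-G4, 5.70 in Dal-4 and 6.68 in Tucker, the highest. BAMBI, the gene of the widest range among these 6, was 4.55 in CHAD-G4, 5.03 in Dal-4 and 9.14 in Tucker. By itself it lowers the means of CHAD-G4 and Dal-4 and raises that of Tucker, so these means do not order the dogs for the list as a whole. CHAD-G8, with the highest BMP4 signal, had a mean of 6.38, and the F1 dog had 6.30.

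The genes whose signals over the 10 dogs were most like each of the 10 genes were taken by Pearson's r among 14354 tested probe sets with a range of at least 1 log2 unit. The values share the same 10 dogs and arrays and are given as a description. For TGFB1 these were PTDSS1 (0.93), GSK3B (0.93) and PPIP5K2 (0.92), all lowest in CHAD-G4 and highest in Dal-4. For TGFB3 they were EXO5 (0.97), ABCB1 (0.91), a drug efflux pump that ran from 3.27 in the F1 dog to 10.07 in CHAD-G4, and ALDH7A1 (0.91). For BMP4 they were PLA2G12A (0.92), EPHB3 (0.88) and IGFBP2 (0.87), all highest in CHAD-G8. IGFBP2, which binds insulin-like growth factors, ran from 5.98 in Joey to 11.86 in CHAD-G8.

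For TGFB2 the values were lower, with TRIB1 (0.79), AADAT (0.78) and SEMA3D (0.78). For TGFBR1 the genes were FAM20B (0.97), TMEM248 (0.96) and RAC1 (0.95), all lowest in Tucker and highest in Frog, and for TGFBR2 they were YWHAZ (0.89), FASN (0.88) and BTBD6 (0.88), all lowest in Journey. SMAD9 was most like UBXN7 (0.94), USP24 (0.93) and NUFIP2 (0.93), all highest in Dal-4, and SMAD3 most like KRT76 (0.89), TSC22D4 (0.83) and HMOX1 (0.81). For ID1 they were ANGPT1 (0.91), the ligand of the TEK receptor, LAMA3 (0.89) and TLE4 (0.88). For ID3 they were ECM1 (0.85), CRLF3 (0.80) and SLC9B1 (0.77).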

How the data were processed

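Total RNA of cultured cells from 10 dogs was hybridized to Affymetrix Canine_2 arrays. Values were deposited as log2 signals, which the authors computed with RMA (per the labels, with the affy package, version not given in the sources used here), which subtracts background, makes the arrays' distributions equal and sums probes into probe sets. RMA draws arrays together and flattens low signals, so differences near background are understated. No array was rescanned, and no column of values was left unused (0 columns).

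After removal of 111 control probe sets, a probe set was tested if its signal exceeded the 40th percentile on 3 or more of the 9 purebred arrays (26787 probe sets). Gene names came from the platform annotation, updated by gene identifier: 29254 probe sets had 1 gene symbol, 439 had several and were given no name, and 13231 had none. Breed groups were taken from the labels, and sex and age from the study's signalment. GR and nGR dogs were compared with limma 3.58.1 in R 4.3.3 (lmFit and eBayes, two-sided, Benjamini-Hochberg over all tested probe sets), with the F1 dog left out. Exact permutation tests used all splits of the dogs compared, which were 84 for the 9 purebred dogs. Correlations used 100000 resamples with adjustment over 45 pairs (numpy 2.4.6 and pandas 2.3.3, Python 3.11.15). The limma p-values set a difference against the spread between dogs, which holds the error of culture and array as well. The fit was also run on simulated data, with independent values for each probe set and planted changes of at least 1 log2 unit. The tested probe sets of the 10 genes all had smaller differences, so that run does not show what the fit finds at their size. The number of arrays limits the precision.

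The 10 genes and the gene lists were chosen with earlier results of these data known. Named were all 10 genes with each probe set, in each list the 3 genes with the smallest unadjusted p and the 3 with the widest range, and for each of the 10 genes the 3 genes most like it by Pearson's r. A gene of the lists was read at its tested probe set of highest mean. The SMAD genes, the marker genes and the dogs' order were described besides. Alternatives changed the scaling, the filter, the test, the place of the F1 dog and the dogs used, and the one without Dal-4 and CHAD-G4 was chosen after seeing the data.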

Additional observations from a re-analysis of the deposited data

Results flagged for a closer look

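In 5 results 1 Golden Retriever lay farther from the other 5 than Dixon's test allows at its 95% critical value, which chance exceeds in about 1 in 20 groups. This was seen at 3 of 19 tested probe sets of the 10 genes and for 2 of 29 other named pathway genes. Those 29 were picked from these same data by their p or their range, LTBP2 and ACTA2 for their range. The share of 1 in 20 thus does not apply to them. Several of the 19 probe sets share a gene, so they are not independent. CHAD-G4 had a TGFB1 signal of 6.49, with the nearest other Golden Retriever at 8.43, and a signal of 8.43 at the brighter TGFB3 probe set, with the nearest at 7.85. CHAD-G8 had a BMP4 signal of 8.0, with the nearest at 6.27. CHAD-G4 also had an LTBP2 signal of 4.45 against 9.47 for the nearest, and an ACTA2 signal of 6.39 against 13.37. Of these 5, 4 came from CHAD-G4, 1 of the 2 dogs whose arrays stood apart.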

How the results depend on the processing

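None of the 19 probe sets of the 10 genes and none of the other pathway genes passed an adjusted p under 0.05 in any of the 21 settings. Of 395 values under alternatives, 359 kept their direction and 36 reversed, at 11 probe sets, while 8 probe sets never reversed; stricter filters left out 4 more values. With array weights TGFB1 was 0.03, TGFBR2 probe set 1 0.04 and TGFBR2 probe set 3 0.02. With the F1 dog counted as a Golden Retriever, TGFB2 probe set 1 was -0.17 and TGFBR2 probe set 1 0.01. With it counted among the other breeds, TGFBR2 probe set 6 was -0.01, SMAD3 probe set 1 0.02, and ID3 -0.14 and -0.16. Among males alone TGFBR2 probe set 1 was 0.19. Without Dal-4 and CHAD-G4, a setting chosen after seeing the data, TGFB1 was 0.43, TGFBR2 probe set 1 0.05 and SMAD3 probe set 1 0.05. With 1 dog left out, the ranges were -0.54 to 0.08 for TGFB1, -0.27 to 0.25 and -0.06 to 0.45 for TGFB2, -0.12 to 0.11 and -0.15 to 0.24 for TGFBR2 probe sets 1 and 6, -0.06 to 0.04 and -0.16 to 0.09 for SMAD3, -0.11 to 0.76 for ID1, and -0.20 to 0.60 and -0.34 to 0.71 for ID3. The median difference of the 19 was -0.20 to -0.003 with 1 dog left out. The number of probe sets at an exact permutation p under 0.05 was 1, and 0 to 2 with 1 dog left out (2 without CHAD-G4, both of TGFB3, 1 of TGFBR2 without CHAD-G6, SMAD9 alone without CHAD-G8, Frog or CHAD-P9, and 0 without Journey, Tucker, Dal-4 or Joey). The number at an unadjusted p under 0.05 by limma was 1 to 3, and of other pathway genes 0 (without Dal-4) to 6. In the more variable part of the probe sets only 3 SMAD genes were tested, all lower in Golden Retrievers. The causes of these shifts were not tested. Exact tests with 1 dog left out had fewer splits, so the smallest p they allow is higher. The exact test was not run for males alone, where 3 against 3 dogs cannot reach 0.05, nor for filters and scalings other than centring. No paired analysis was possible because the replicate numbers do not link dogs across breeds.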
